A study of Mus musculus with 9 samples.

Results

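Tumour cell lines recovered from cancers that had grown in irradiated stroma (IR, 3 arrays) were compared with the parental SCCVII line kept in culture (PA, 3 arrays). Both sets were chosen by their array titles, and they are 6 of the 9 arrays of the series. SCCVII is a mouse squamous cell carcinoma line that arose spontaneously in the mouth of CH3 mice, as the labels spell the strain. The PA cells were cultured under standard conditions and had not been passed through an animal. For the IR lines, PA cells were injected into stroma that had been irradiated beforehand, and lines were established from the resulting tumours. By the labels those tumours were very hypoxic, invaded and spread, and the lines kept these properties after expansion in normal oxygen. IR and PA therefore differ both in the irradiation of the host tissue and in having grown as a tumour. A further 3 arrays (NIR) hold lines from tumours grown in stroma that was not irradiated; they share the estimate of the spread, and their values are given only where stated. The labels call the 9 samples independent but do not say whether the 3 IR lines came from 3 tumours, so the p-values measure the spread between these samples. The question the comparison addresses is which transcripts differ between cells that passed through an irradiated tumour bed and the cells they came from.

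RNA was measured on Affymetrix expression arrays, and each value below is a log2 signal, on which 1 unit is a 2-fold difference. For each of 18194 genes 1 probe set was kept. Values are listed in the order IR1, IR2, IR3 and then PA1, PA2, PA3, and a change is the IR mean minus the PA mean, with n = 3 arrays a group throughout. A gene is said to have risen or fallen when its limma adjusted p lay below 0.05 over all 18194 genes. Signals of different genes come from different probes and were not compared with each other. The median signal over all probe sets and arrays was 4.49, and a gene is called dim when its mean lay under that value in both groups.

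Cells that sense foreign or misplaced nucleic acid release type I interferons. These act through receptors on the cell surface, the kinases JAK1 and TYK2, and a complex with STAT2 and IRF9 that binds the interferon-stimulated response element (ISRE) before many genes. The products detect viral RNA and DNA, cut or edit RNA, block translation, tag proteins with ISG15 and load peptides on MHC class I molecules, and many tumour lines keep part of this programme switched on in culture. The extracellular matrix proteins described below, such as collagen VI and decorin, are usually made by fibroblasts and other mesenchymal cells. EGR1 is a zinc finger transcription factor that is induced within minutes by growth factors, strain and radiation.

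The standard deviation of the log2 differences between 2 arrays over all genes was 0.129 to 0.209 within IR, 0.142 to 0.184 within PA and 0.187 to 0.254 between the groups. IR3 stood apart from IR1 and IR2, at 0.203 and 0.209, farther than IR1 or IR2 lay from PA1 (0.187 and 0.193) or PA3 (0.195 and 0.197). Among the genes called, 6 read more than 0.5 higher on IR3 than the mean of the other two IR arrays, and 12 read more than 0.5 lower. The label of a squamous carcinoma was checked against 14 markers. Krt8, a simple epithelial keratin, read 12.84, 12.79 and 12.65 in IR and 12.65, 12.64 and 12.73 in PA, far above the median signal, and Krt18, its partner, is described below. The basal keratin gene Krt14, the squamous lineage factor Trp63, the adhesion gene Cdh1, and Krt17, Dsp and Perp were dim in both groups. Krt5 read 5.06, 4.90 and 4.80 in IR and 4.88, 4.80 and 5.005 in PA. Thus 6 of the 14 markers, Krt14 and Trp63 among them, were not seen above the median signal in IR or PA, while the mesenchymal intermediate filament gene Vim read 13.42, 13.42 and 13.46 in IR and 13.47, 13.42 and 13.40 in PA.

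Of the 18194 genes, 192 (1.06%) passed the test. Of these 54 (0.297%) were higher in IR and 138 (0.758%) were lower, and 60 changed at least 2-fold, 9 upwards and 51 downwards. At an unadjusted p below 0.05 there were 1563 genes. The median change was 0.63 over the genes that rose, -0.78 over those that fell and 0.0043 over all genes. Of all 18194 genes 9439 had a change above 0, the share to set beside the sign counts of the lists below. In all 192 the IR and PA arrays did not overlap, which follows largely from choosing them by a small adjusted p on these same arrays. Over all genes, 7.26% had every IR array above every PA array and 7.43% had every one below. On the lower side 53 of the 113 measured genes of the interferon lists fell, and so did 85 genes outside them. On the upper side 1 gene of the interferon lists rose, beside 53 others. Of the 192 calls, 88 held when any single array was left out, 18 of them rises and 70 falls.

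**Figure D1:**
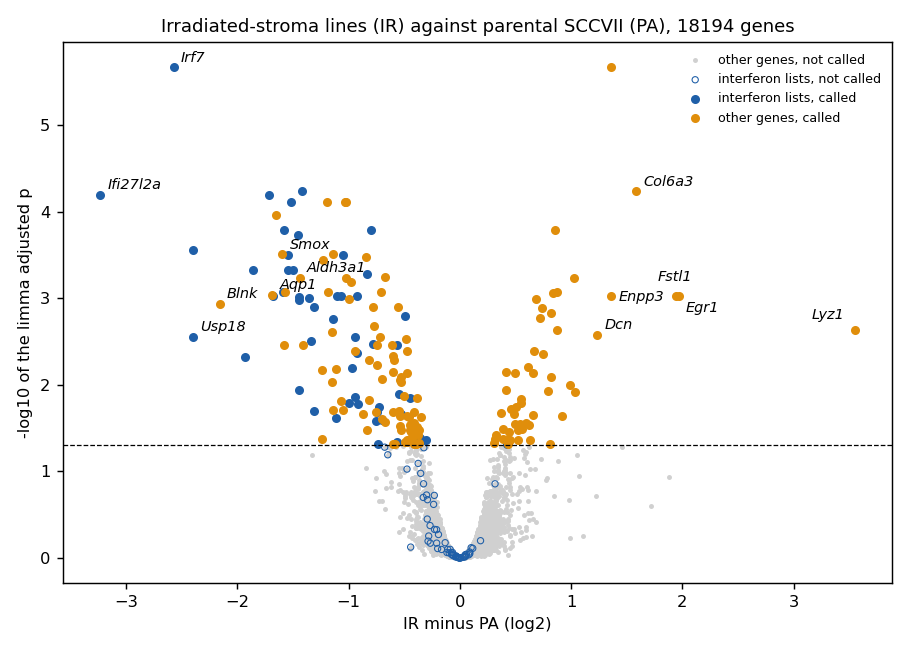
Change between IR and PA (log2, x axis) against the -log10 of the limma adjusted p (y axis) for 18194 genes, 1 point per gene; the dashed line is an adjusted p of 0.05. The called members of the interferon lists lie on the left apart from 1, and the largest rise is Lyz1 at 3.55.

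The interferon lists hold 113 measured genes in 7 roles, with a median change of -0.36; 53 fell, 1 rose and 59 did not pass. ISG15 itself is not analysed here. Among the 18 receptors and signalling factors 3 fell, and the median was -0.02. Irf7, the factor that amplifies interferon production and is itself induced by interferon, read 7.52, 7.35 and 7.16 in IR and 9.93, 9.92 and 9.91 in PA. It fell by 2.57 (SE 0.13, limma adjusted p = 2.13e-06), so that every PA array lay more than 2 units above every IR array. Irf9 and Stat2 encode parts of the ISRE-binding complex. Irf9 read 6.73, 6.79 and 6.42 in IR and 7.53, 7.73 and 7.66 in PA and fell by 0.995 (SE 0.17, limma adjusted p = 0.0161). Stat2 read 5.69, 5.28 and 5.22 in IR and 6.06, 6.53 and 6.43 in PA and fell by 0.94 (SE 0.16, limma adjusted p = 0.014). The receptor subunits and kinases upstream of them gave small differences. Ifnar1 had a mean of 6.97 in IR and 7.01 in PA, Ifnar2 of 7.71 and 7.68, Jak1 of 10.25 and 10.25, and Tyk2 of 6.05 and 6.06. The interferon-gamma-responsive factor Irf1 had means of 8.58 and 8.61, and the constitutive factor Irf3 of 8.10 and 8.11. None of these 6 passed, with limma adjusted p from 0.948 to 0.999. Without array PA2 the adjusted p was 0.107 for Irf9 and 0.0988 for Stat2, while Irf7 passed whichever array was left out.

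**Figure D2:**
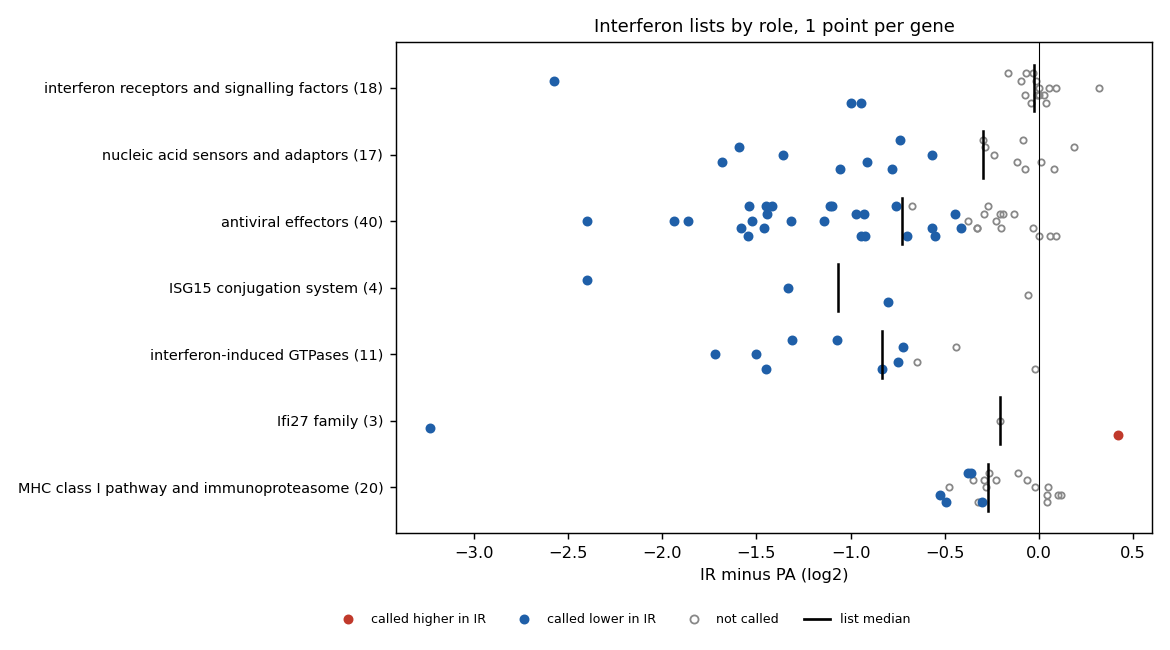
Change between IR and PA (log2, x axis) of the members of 7 interferon lists, 1 point per gene, with the number measured in brackets and the list median as a bar. Most effectors, sensors and GTPases lie to the left of 0, the receptors and kinases lie near it, and Ifi27 is the single red point.

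Among 17 nucleic acid sensors and adaptors 8 fell, and the median was -0.30. Zbp1, a sensor of Z-form nucleic acid, read 5.97, 5.93 and 5.41 in IR and 7.57, 7.46 and 7.32 in PA and fell by 1.68 (SE 0.19, limma adjusted p = 0.000931). The cytosolic RNA helicases moved with it: Dhx58 read 6.52, 6.63 and 6.60 in IR and 8.27, 8.05 and 8.19 in PA and fell by 1.59 (SE 0.18, limma adjusted p = 0.000843), and Ifih1 read 7.34, 7.30 and 6.93 in IR and 8.60, 8.41 and 8.64 in PA and fell by 1.36 (SE 0.16, limma adjusted p = 0.00101). Adar, which edits double-stranded RNA, fell by 1.05 (SE 0.10, limma adjusted p = 0.000317). Trim25, the ubiquitin ligase that activates RIG-I, changed by -0.78, the DNA sensor gene Ifi204 by -0.91, the RNA-activated kinase gene Eif2ak2 by -0.74 and the endosomal RNA receptor gene Tlr3 by -0.57, with limma adjusted p of 0.00342, 0.0168, 0.0486 and 0.0454. The weakest of these depended on single arrays, since Eif2ak2 reached 0.251 and Ifi204 0.111 without PA2, and Tlr3 0.189 without PA3. Adaptors downstream of the sensors, among them Mavs, Sting1 and Ticam1, did not pass. Their changes were -0.29, -0.08 and 0.01.

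The 40 antiviral effectors had a median of -0.73; 25 fell and none rose. The oligoadenylate synthetases make the messenger that activates an RNA-cutting nuclease. Oasl2 read 6.96, 7.005 and 6.30 in IR and 9.20, 9.01 and 9.25 in PA and fell by 2.40 (SE 0.22, limma adjusted p = 0.000276). Oas1a read 8.85, 8.75 and 8.36 in IR and 10.47, 10.59 and 10.48 in PA and fell by 1.86 (SE 0.19, limma adjusted p = 0.000477), Oasl1 fell by 1.58 (SE 0.14, limma adjusted p = 0.000164), Oas3 fell by 1.55 (SE 0.16, limma adjusted p = 0.000478) and Oas2 fell by 1.10 (SE 0.13, limma adjusted p = 0.000942). The IFIT proteins bind viral RNA ends. Ifit1 read 7.04, 7.06 and 6.13 in IR and 8.69, 8.65 and 8.70 in PA and fell by 1.94 (SE 0.28, limma adjusted p = 0.00481), and Ifit3 read 7.04, 6.99 and 6.55 in IR and 8.51, 8.35 and 8.33 in PA and fell by 1.54 (SE 0.15, limma adjusted p = 0.000317). IR3 was the lowest IR array for Ifit1, at 6.13 against 7.04 and 7.06. The third family member, Ifit2, changed less, by -0.44 (limma adjusted p = 0.0143, 0.0979 without PA1). Genes that act on membranes and particles fell too: Bst2, which tethers budding virus, read 9.66, 9.64 and 9.58 in IR and 11.09, 11.13 and 11.04 in PA and fell by 1.46 (SE 0.13, limma adjusted p = 0.000184), and Ifitm3, which blocks fusion, read 11.39, 11.42 and 11.02 in IR and 12.39, 12.45 and 12.43 in PA and fell by 1.14 (SE 0.14, limma adjusted p = 0.00175). Cmpk2 and Rsad2, neighbours whose products yield an antiviral nucleotide, changed by -1.52 and -0.97. The smallest falls in the list that passed were Plac8 at -0.42 and Ifit2; Plac8 lost its call without PA2 (adjusted p = 0.22).

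The other effectors that fell were the ADP-ribosyltransferase genes Parp14 (-1.45), Parp12 (-0.93) and Parp9 (-0.92), Xaf1 (-1.44), Lgals3bp (-1.42), Trim30a (-1.32), Samd9l (-1.11), Ifi35 (-0.95), Sp100 (-0.76), Slfn2 (-0.70), Trim21 (-0.57) and Tor3a (-0.55). Trim30a, Samd9l, Sp100, Slfn2 and Tor3a lost their calls when single arrays were left out, with highest adjusted p of 0.12 without PA3, 0.13 without PA1, 0.13 without IR1, 0.134 without PA3 and 0.0788 without PA2. Lgals3bp, a secreted glycoprotein, had one of the tightest differences, reading 8.88, 8.87 and 8.82 in IR and 10.35, 10.15 and 10.31 in PA (SE 0.10, limma adjusted p = 5.83e-05). In the ISG15 system, which attaches a ubiquitin-like tag, 3 of 4 measured genes fell and the median was -1.07. Usp18, which removes the tag and restrains the receptor, read 7.50, 7.42 and 6.77 in IR and 9.69, 9.59 and 9.61 in PA and fell by 2.40 (SE 0.32, limma adjusted p = 0.00278). Ube2l6, the conjugating enzyme, read 6.04, 6.11 and 6.16 in IR and 7.48, 7.80 and 7.03 in PA and fell by 1.33 (SE 0.18, limma adjusted p = 0.0031), and Herc6, the ligase, fell by 0.80 (SE 0.07, limma adjusted p = 0.000163).

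The interferon-induced GTPases attack the vacuoles of intracellular pathogens, and 8 of 11 fell, with a median of -0.84. Gbp3 read 6.64, 6.77 and 6.59 in IR and 8.46, 8.48 and 8.22 in PA and fell by 1.72 (SE 0.13, limma adjusted p = 6.36e-05). Igtp read 8.65, 8.53 and 8.13 in IR and 9.96, 9.97 and 9.89 in PA and fell by 1.503 (SE 0.15, limma adjusted p = 0.000478), and Irgm2 read 7.81, 7.67 and 7.59 in IR and 9.09, 9.16 and 9.16 in PA and fell by 1.45 (SE 0.24, limma adjusted p = 0.0114). Gbp7, Irgm1, Gbp2, Gbp2b and Gbp6 changed by -1.31, -1.07, -0.84, -0.75 and -0.72. The probe sets of such close relatives can share transcripts, so the split between members is uncertain. Without PA2 the limma adjusted p of Irgm2 was 0.074, without PA3 that of Gbp6 was 0.0954, and without PA1 that of Gbp2b was 0.122. The Ifi27 family split. Ifi27l2a had the largest fall of all 18194 genes, reading 7.45, 7.19 and 7.05 in IR and 10.35, 10.44 and 10.59 in PA; it fell by 3.23 (SE 0.24, limma adjusted p = 6.36e-05). Its relative Ifi27, a mitochondrial protein gene, read 10.59, 10.58 and 10.70 in IR and 10.23, 10.11 and 10.26 in PA and rose by 0.42 (SE 0.09, limma adjusted p = 0.0486), the only rise in the interferon lists, and it did not pass after centring the arrays on their medians or without PA2 (0.244).

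The genes of antigen presentation had a median nearer 0 than the effectors. Of 20 genes of the MHC class I pathway and immunoproteasome 5 fell, the median was -0.27, and 15 did not pass. B2m, the invariant light chain, read 12.98, 13.01 and 13.03 in IR and 13.30, 13.31 and 13.30 in PA and fell by 0.30 (SE 0.06, limma adjusted p = 0.0432), a small difference between narrow groups. H2-K1, a heavy chain, read 9.40, 9.37 and 9.37 in IR and 9.85, 9.85 and 9.91 in PA and fell by 0.49 (SE 0.06, limma adjusted p = 0.00159), and H2-D1 fell by 0.36 (SE 0.07, limma adjusted p = 0.0415); probe sets of these polymorphic genes may bind several heavy chains. The peptide transporter gene Tap1 and the proteasome subunit gene Psmb9 lie side by side and changed by -0.52 and -0.38. Psme1, Psmb10 and Psmb8, further parts of the immunoproteasome, had changes of -0.32, -0.48 and -0.35 that did not pass (limma adjusted p = 0.0532, 0.094 and 0.105). All of these calls but that of H2-K1 depended on single arrays: the limma adjusted p was 0.149 for Psmb9 without IR1, 0.177 for B2m without PA1, and 0.127 for Tap1 and 0.211 for H2-D1 without PA2.

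The lists did not hold every gene known to answer interferon. Among the falls in no list, 18 such genes were recognised after their values were seen, with changes from -1.66 to -0.36; they were picked from falls that had passed, so their shared direction is set by the choice. Ly6e, a membrane protein gene that affects virus entry, read 10.51, 10.32 and 9.84 in IR and 11.94, 11.87 and 11.82 in PA and fell by 1.66 (SE 0.14, limma adjusted p = 0.000109). Rtp4 read 8.61, 8.61 and 8.15 in IR and 10.07, 9.94 and 10.10 in PA and fell by 1.58 (SE 0.22, limma adjusted p = 0.00348). The helicase genes Ddx60 and Ddx58 (the RNA sensor RIG-I) changed by -1.57 and -0.997, and the DNA-binding HIN-200 genes Ifi202b and Mndal by -1.19 and -1.15. Lgals9, a galectin gene, read 9.93, 9.85 and 9.88 in IR and 11.02, 10.85 and 10.88 in PA; it fell by 1.03 (SE 0.08, limma adjusted p = 7.84e-05). The rest were Phf11d (-1.41), Helz2 (-1.12), Epsti1 (-0.77), Trim12c (-0.75), Ido1 (-0.70), Rnf213 (-0.60), Tdrd7 (-0.54), Parp11 (-0.54), Nmi (-0.44), Samhd1 (-0.42) and Cmtr1 (-0.36). Of the 18, 9 lost their call when a single array was left out: Helz2 (at most 0.053, without PA2), Mndal (0.0602, PA2), Trim12c (0.118, PA1), Ido1 (0.135, PA1), Tdrd7 (0.0594, PA1), Parp11 (0.141, PA1), Nmi (0.194, PA2), Samhd1 (0.165, PA1) and Cmtr1 (0.22, PA2).

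Promoters were read because these genes fell together. RefSeq promoter sequence (GRCm38.p6, 250 bases before to 50 bases after each start) was matched for 14368 tested genes and searched on both strands for the ISRE core, GAAA followed by any 2 bases and GAAA again, which reads TTTC, 2 bases and TTTC on the other strand; overlapping cores count separately. Of all promoters 523 (3.64%) held it. Among the interferon list members that fell it was in 20 of 43 (46.5%), among those that did not pass in 11 of 47 (23.4%), among the other genes that fell in 10 of 66 (15.2%), and among the genes that rose in 1 of 35 (2.86%), Il1rap. The 10 outside the lists were Ddx58, Ddx60, Lgals9, Mitd1, Mndal, Ogfr, Parp11, Shisa5, Tdrd7 and Trim12c. Of the interferon genes among the 20 largest falls, Irf7, Oasl2, Oasl1 and Cmpk2 held no such core in this window, and Ifi27l2a, Usp18, Zbp1, Ly6e, Dhx58 and Rtp4 had no entry in the promoter table and were not searched. The stretches below show the core in capitals in genes with large falls and in Stat2, each ending before the transcript start.
Ifit1, chr19:34640765-34640833, plus strand: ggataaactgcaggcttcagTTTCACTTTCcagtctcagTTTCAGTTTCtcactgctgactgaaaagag
Oas1a, chr5:120907526-120907565, minus strand: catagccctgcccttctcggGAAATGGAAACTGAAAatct
Gbp3, chr3:142559979-142560034, plus strand: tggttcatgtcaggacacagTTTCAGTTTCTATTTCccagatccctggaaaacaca
Ddx60, chr8:61928014-61928086, plus strand: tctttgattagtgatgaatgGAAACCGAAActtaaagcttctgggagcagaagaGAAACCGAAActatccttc
Oas3, chr5:120777705-120777754, minus strand: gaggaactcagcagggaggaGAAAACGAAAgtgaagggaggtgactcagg
Ifit3, chr19:34583353-34583436, plus strand: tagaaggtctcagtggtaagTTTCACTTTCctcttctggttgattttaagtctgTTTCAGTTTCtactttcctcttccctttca
Igtp, chr11:58199502-58199551, plus strand: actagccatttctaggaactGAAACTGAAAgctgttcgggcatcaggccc
Bst2, chr8:71537567-71537622, minus strand: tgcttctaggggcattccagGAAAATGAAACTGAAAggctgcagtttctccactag
Irgm2, chr11:58214893-58214942, plus strand: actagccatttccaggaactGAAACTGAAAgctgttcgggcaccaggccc
Stat2, chr10:128270256-128270305, plus strand: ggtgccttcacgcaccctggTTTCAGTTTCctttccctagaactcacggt
Ifit1, Ifit3 and Ddx60 carried a pair of separate cores, and in Oas1a, Gbp3 and Bst2 a pair overlapped. The stretches of Igtp and Irgm2, neighbouring genes, were identical at 48 of 50 bases. Other motifs searched the same way were TGANTCA, the AP-1 site, found in 10 of 43 interferon members that fell, 4 of 35 genes that rose and 7.5% of all promoters, and TGACNNNGC, the antioxidant response element, found in 10 of 35 genes that rose (28.6%) and 16.1% of all; these share the letters TGA and can overlap. The CArG box, read by serum response factor, was in none of the 35 and in 1.59% of all. At so low a share 35 promoters are too few to tell whether it was rarer among the rises. A match is a run of letters and not a measured binding site.

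Several of the larger rises outside the interferon lists were in genes of the extracellular matrix. Of 123 measured matrix genes 6 rose and 2 fell. Fstl1, a secreted glycoprotein of the SPARC family that binds BMP ligands, read 7.11, 7.08 and 6.12 in IR and 5.01, 4.73 and 4.76 in PA and rose by 1.94 (SE 0.22, limma adjusted p = 0.000931). IR3 was the lowest of the IR arrays and still lay above every PA array, and a further probe set of Fstl1 changed by 1.71. Collagen VI forms beaded filaments around cells from chains alpha 1, alpha 2 and alpha 3. Col6a3 read 7.36, 7.40 and 7.34 in IR and 5.76, 5.85 and 5.73 in PA and rose by 1.58 (SE 0.11, limma adjusted p = 5.83e-05). Col6a1 read 7.27, 7.05 and 7.68 in IR and 6.27, 6.23 and 6.41 in PA and rose by 1.03 (SE 0.17, limma adjusted p = 0.0123). Col6a2 read 5.97, 6.33 and 5.81 in IR and 5.31, 5.54 and 5.57 in PA, a change of 0.57 with groups that did not overlap but a limma adjusted p of 0.0571. Col6a4 and Col6a5, alternatives to the alpha 3 chain, were dim. Col6a1 did not pass without PA2 (0.0867) or PA1, and Col6a3 passed whichever array was left out.

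Fibrillar collagens did not pass, 0 of 12, although 10 of 12 changes were above 0 and the median was 0.17. Col1a1 read 7.46, 7.28 and 6.96 in IR and 5.98, 6.56 and 6.22 in PA and Col3a1 read 11.61, 11.63 and 11.47 in IR and 11.26, 11.16 and 11.33 in PA, with adjusted p of 0.215 and 0.175 by limma. Dcn, the small proteoglycan decorin that binds collagen fibrils and TGF-beta, read 8.90, 8.88 and 9.38 in IR and 7.78, 7.66 and 8.01 in PA and rose by 1.24 (SE 0.16, limma adjusted p = 0.00265). Its list of 9 small leucine-rich proteoglycans held no other call; Lum, lumican, read 5.95, 5.62 and 6.49 in IR and 5.33, 5.27 and 5.40 in PA (adjusted p = 0.38). Lrrc17, a secreted leucine-rich repeat protein gene, had narrow groups: 7.78, 7.80 and 7.79 in IR and 6.43, 6.43 and 6.42 in PA. It rose by 1.36 (SE 0.06, limma adjusted p = 2.13e-06). Ccn1, a matricellular protein gene induced by growth factors and strain, read 8.87, 8.94 and 8.91 in IR and 8.22, 8.22 and 8.24 in PA and rose by 0.69 (SE 0.08, limma adjusted p = 0.00102). Vcan, the large proteoglycan versican, went the other way, 8.44, 8.50 and 8.40 in IR and 8.81, 8.87 and 8.84 in PA, and fell by 0.39 (SE 0.08, limma adjusted p = 0.0486); without PA2 its adjusted p was 0.22. Agrn, a basement membrane proteoglycan gene, fell by 0.54 and was likewise not called without PA2 (0.148). Pxdn, in no list, encodes the peroxidase that cross-links collagen IV and changed by 0.39 (0.181 without PA1).

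**Figure D3:**
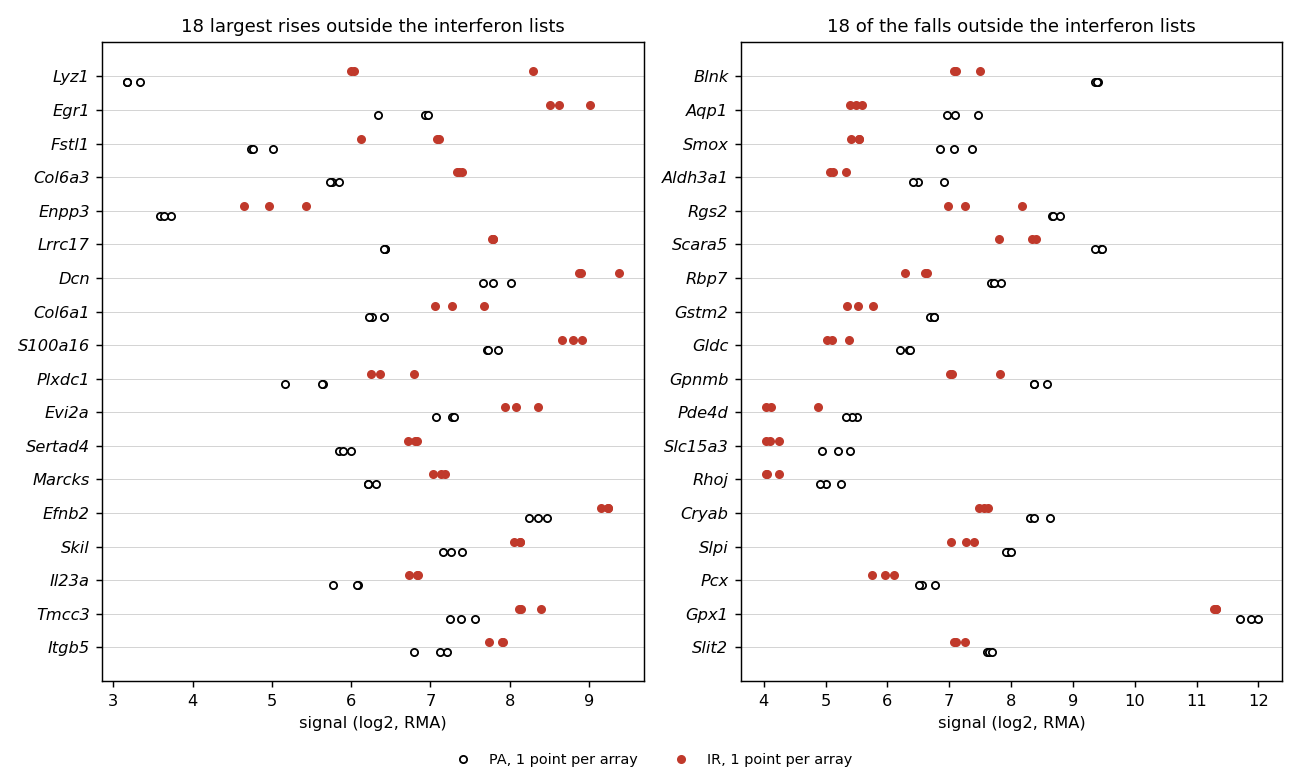
Log2 signal (x axis) on each IR and PA array, 1 point per array. The left panel holds the 18 largest rises outside the interferon lists. The right panel holds 18 falls outside them that were picked by name and are not the 18 largest. In every row the IR and PA points are separate, and IR3 lies away from the other IR points for Lyz1, Fstl1, Rgs2, Gpnmb and Pde4d.

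Adhesion, guidance and cytoskeletal genes gave single calls. Itgb5, the integrin subunit that pairs with alpha V to bind vitronectin, read 7.91, 7.91 and 7.74 in IR and 6.79, 7.13 and 7.21 in PA and rose by 0.81 (SE 0.17, limma adjusted p = 0.0483), the only one of 18 integrins to pass; its partner Itgav changed by 0.26 (adjusted p = 0.135). The Itgb5 call was lost without any one of 7 arrays, with the highest limma adjusted p without PA1, 0.236. Efnb2, a membrane ligand of Eph receptors, read 9.24, 9.24 and 9.15 in IR and 8.47, 8.36 and 8.24 in PA and rose by 0.85 (SE 0.07, limma adjusted p = 0.000164), and passed whichever array was left out. Slit2, the secreted ligand of Robo receptors, read 7.08, 7.11 and 7.25 in IR and 7.61, 7.65 and 7.70 in PA and fell by 0.51 (SE 0.08, limma adjusted p = 0.0134) (0.0805 without IR1). These were 2 of 35 guidance genes. Marcks, which links protein kinase C to the actin cortex, read 7.19, 7.03 and 7.13 in IR and 6.31, 6.21 and 6.22 in PA and rose by 0.87 (SE 0.10, limma adjusted p = 0.000843). Other genes of the actin cytoskeleton and its regulation, grouped after their values were seen, were Arhgap29 (0.79), Tmsb4x, thymosin beta 4 (0.65), Cdc42ep5 (0.61) and Pstpip2 (0.45), which rose, and Rhoj (-0.94) and Epb41l1 (-0.49), which fell. Of these Rhoj and Epb41l1 passed whichever array was left out; the highest adjusted p of the other four was 0.0733 for Arhgap29 without IR1, 0.133 for Tmsb4x without PA2, 0.0504 for Cdc42ep5 without PA1 and 0.188 for Pstpip2 without PA1.

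Few markers of cell identity passed. Krt18 read 11.94, 11.94 and 11.996 in IR and 11.43, 11.37 and 11.41 in PA and rose by 0.55 (SE 0.09, limma adjusted p = 0.0146), while its partner Krt8 had means of 12.76 and 12.67 (limma adjusted p = 0.863); Krt18 was the only call among 12 keratins and was lost without PA2 (0.0901). Snai2, the repressor Slug of epithelial genes, read 8.64, 8.54 and 8.77 in IR and 8.04, 8.08 and 7.93 in PA and rose by 0.63 (SE 0.13, limma adjusted p = 0.0432) through a probe set that can bind related transcripts; it was lost after median centring and without 7 of the 9 arrays, at most 0.185 without PA3. No other of 19 mesenchymal factors passed. Twist2 and Prrx1 had changes of -0.37 and -0.30 (adjusted p = 0.135 and 0.181), and Twist1 had means of 7.94 and 8.02. S100a16, a calcium-binding protein gene, read 8.91, 8.80 and 8.66 in IR and 7.71, 7.73 and 7.85 in PA and rose by 1.03 (SE 0.11, limma adjusted p = 0.000579), 1 of 19 S100 and annexin genes. Msln, mesothelin, a surface protein of mesothelium and several carcinomas, read 7.23, 7.19 and 6.90 in IR and 6.41, 6.44 and 6.50 in PA and rose by 0.65 (SE 0.10, limma adjusted p = 0.00737) (0.0562 without PA1).

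Of the Egr and AP-1 transcription factors 3 of 20 rose. Egr1 read 8.62, 8.51 and 9.02 in IR and 6.94, 6.34 and 6.97 in PA and rose by 1.97 (SE 0.23, limma adjusted p = 0.000942), a 3.91-fold difference that held whichever array was left out. Fos read 4.95, 4.78 and 4.93 in IR and 4.51, 4.36 and 4.29 in PA and rose by 0.501 (SE 0.09, limma adjusted p = 0.0182), and Atf3, a stress-induced partner of AP-1, read 5.76, 5.72 and 5.82 in IR and 5.005, 5.48 and 5.02 in PA and rose by 0.59 (SE 0.11, limma adjusted p = 0.0274). No other gene of this list passed. Of its 20 genes 14 had changes above 0 and 6 below. All IR arrays lay above all PA arrays in 8 of them, which 7.26% of all genes did. Jun had means of 8.91 and 8.90, Fosl1 of 9.61 and 9.59, and Egr3 of 6.20 and 6.12. The early response gene Ier2 had a change of 0.45 with groups that did not overlap (limma adjusted p = 0.105). Without PA2 the limma adjusted p of Fos was 0.104, and without PA1 that of Atf3 was 0.16. None of 12 feedback inhibitors of ERK signalling passed; the median was 0.09 with 9 changes above 0, and 0.04 with 6 above 0 without IR3. Spry1 read 7.10, 6.95 and 7.50 in IR and 6.47, 6.24 and 6.66 in PA and Dusp6 10.002, 10.09 and 10.25 in IR and 9.78, 9.79 and 9.74 in PA, with adjusted p of 0.072 and 0.194.

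Growth factor pathways gave single genes too. Skil, the SnoN repressor that SMAD signalling induces and is held back by, read 8.13, 8.13 and 8.05 in IR and 7.39, 7.25 and 7.16 in PA and rose by 0.84 (SE 0.09, limma adjusted p = 0.00087), and Id1, a BMP target gene, read 7.63, 7.61 and 7.95 in IR and 8.14, 8.25 and 8.15 in PA and fell by 0.45 (SE 0.09, limma adjusted p = 0.0432); these were the calls among 27 TGF-beta and BMP genes. The Id1 call was lost without 8 of the 9 arrays, with the highest limma adjusted p, 0.221, without PA2. Errfi1, which inhibits the EGF receptor, rose by 0.37 (SE 0.07, limma adjusted p = 0.0214), and Ereg, the ligand epiregulin, fell by 0.41 (SE 0.09, limma adjusted p = 0.0486); both lost their calls without single arrays, at most 0.134 without PA1 and 0.239 without PA2. Plxdc1, a transmembrane protein gene first known from tumour vessels, read 6.25, 6.36 and 6.79 in IR and 5.17, 5.64 and 5.63 in PA and rose by 0.99 (SE 0.16, limma adjusted p = 0.0102) (0.0543 without PA1). Il23a, the p19 subunit of interleukin 23, read 6.84, 6.73 and 6.84 in IR and 6.09, 6.08 and 5.77 in PA and rose by 0.82 (SE 0.10, limma adjusted p = 0.0015), the only call among 28 cytokine and NF-kB target genes. Il1rap, the accessory chain of the interleukin 1 receptor, changed by 0.43 (0.178 without PA3). None of 26 chemokines, 25 Wnt, 15 Notch or 15 YAP and TEAD genes passed. The chemokine genes Cxcl10 and Ccl5, which interferon induces, had changes of -0.64 and -0.55 (adjusted p = 0.0616 and 0.14).

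The largest rise was read by the probe set of Lyz1, a lysozyme gene. It read 6.04, 5.99 and 8.30 in IR and 3.33, 3.17 and 3.17 in PA and rose by 3.55 (SE 0.46, limma adjusted p = 0.0023), and IR3 exceeded the other IR arrays by more than 2 units. Without IR3 the change was 2.79 (adjusted p = 1.47e-05). The probe set can bind related transcripts, and Lyz2 is a near-identical neighbour; the Lyz1 probe set without that property changed by 0.24 at a signal of 3.42 over the 9 arrays, so which lysozyme gene was read is uncertain. Lyz2, the lysozyme of macrophages, read 5.71, 5.78 and 8.25 in IR and 4.63, 4.95 and 5.02 in PA (limma adjusted p = 0.251). Of the lysosome list Ctss and Ctsc, cathepsins S and C, read 4.81, 4.88 and 6.56 in IR and 4.42, 4.08 and 4.08 in PA and 3.42, 3.53 and 4.02 in IR and 3.02, 3.04 and 3.12 in PA, and did not pass (0.192 and 0.06). Enpp3, an ectonucleotidase, read 4.96, 5.43 and 4.64 in IR and 3.58, 3.73 and 3.64 in PA and rose by 1.36 (SE 0.16, limma adjusted p = 0.000931), while P2ry2, a nucleotide receptor gene, fell by 0.45 (SE 0.09, limma adjusted p = 0.0432) and was lost without 8 of the 9 arrays (0.216 without PA2).

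Lines taken from a tumour could hold host cells, and marker lists for these were read on each array. Of 16 macrophage markers none passed, 13 had changes above 0 and 3 below, and the median was 0.19. Their summed linear signal was 604 to 959 in IR and 554 to 592 in PA, with the highest on IR3. The list mean was 4.91 to 5.30 on the IR arrays and 4.71 to 4.83 on the PA arrays. Lyz2, Tyrobp and Mrc1 (change 0.47, limma adjusted p = 0.184) had all IR arrays above all PA arrays, which 7.26% of all genes did. Only 4 of the 16 were dim, namely Adgre1, Itgam, C1qb and C1qc. Csf1r had means of 5.59 in IR and 5.59 in PA. Cd68, Tyrobp and Mpeg1 read 4.81, 4.71 and 5.83 in IR and 4.30, 4.49 and 4.78 in PA, 4.85, 4.72 and 5.39 in IR and 4.45, 4.38 and 4.51 in PA and 4.67, 4.42 and 5.26 in IR and 4.23, 4.43 and 4.36 in PA, each highest on IR3. Of 12 fibroblast markers 1 rose, Dcn, 9 more had changes above 0 and 2 had changes below 0. In this list 4 had all IR arrays above all PA arrays, which 7.26% of all genes did. The summed signal was 7411 to 7660 in IR and 5487 to 6607 in PA. Col1a1 and Lum, given above, had changes of 0.98 and 0.68. Dpt read 5.53, 5.31 and 7.30 in IR and 4.998, 4.80 and 5.36 in PA, highest on IR3 (limma adjusted p = 0.592). Fap, Postn and Thy1 were dim, whereas Col1a2, Col3a1 and Pdgfra were far above the median in PA as well: Col1a2 read 11.59, 11.49 and 11.52 in IR and 11.26, 11.09 and 11.50 in PA and Pdgfra 9.11, 8.996 and 9.40 in IR and 9.19, 9.05 and 9.20 in PA. The lists of neutrophil, T and NK cell, B cell, endothelial, and muscle, fat and red cell markers held no call in 47 genes measured, and Ptprc, the pan-leukocyte gene, was dim. Fewer cells of a type and less RNA per cell cannot be told apart in such samples. The part of host cells in the rises of Lyz1, Dcn and the collagen VI genes was not tested; without IR3 the changes were 2.79, 1.07, 0.86 for Col6a1 and 1.60 for Col6a3.

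**Figure D4:**
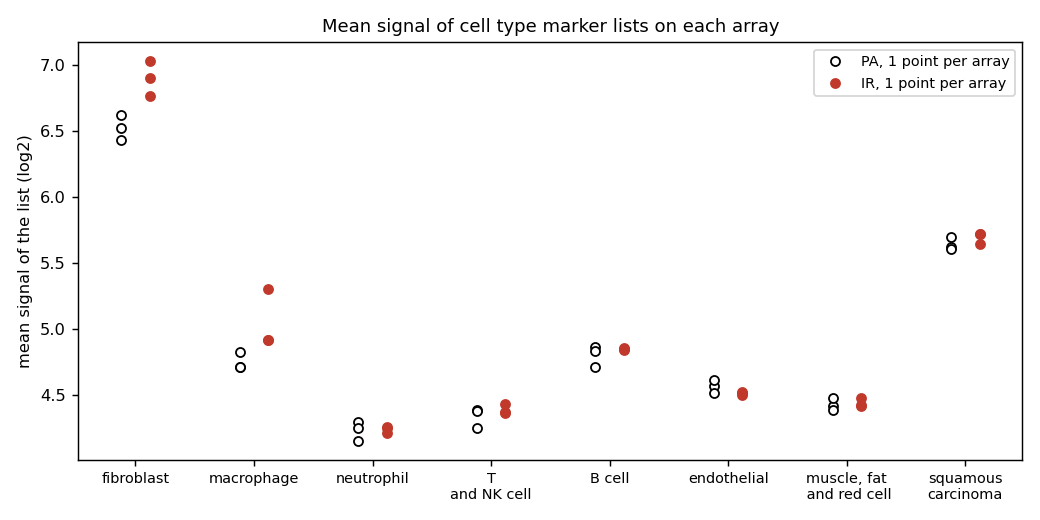
Mean log2 signal (y axis) of 8 cell type marker lists on each IR and PA array, 1 point per array. The fibroblast list lies at 6.76 to 7.03 in IR and 6.43 to 6.62 in PA. The macrophage list lies at 4.91 to 5.30 in IR, highest on IR3, and at 4.71 to 4.83 in PA. The other lists overlap between groups.

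Outside the interferon lists the largest fall was Blnk, the adaptor that couples the B cell receptor kinase SYK to calcium signalling. It read 7.08, 7.11 and 7.50 in IR and 9.36, 9.41 and 9.39 in PA and fell by 2.16 (SE 0.26, limma adjusted p = 0.00116), a 4.46-fold difference. It was the only call among 18 genes of B cell receptor and immune adaptor signalling, and Syk, Btk and Cd79b, which act beside it, were dim, with IR means of 4.47, 4.21 and 3.69. Skap2 and Dok3, cytosolic adaptors of myeloid and lymphoid cells, rose by 0.41 and 0.46, and both calls were lost without PA1 (0.0504 and 0.115). Aqp1, the water channel, read 5.39, 5.58 and 5.49 in IR and 6.97, 7.46 and 7.09 in PA and fell by 1.69 (SE 0.19, limma adjusted p = 0.000911), and Kcnk5, a potassium channel gene, fell by 0.53 (SE 0.10, limma adjusted p = 0.033) (0.187 without PA2); these were 2 of 18 transport genes. Scara5, a ferritin receptor gene, read 8.40, 8.34 and 7.81 in IR and 9.45, 9.36 and 9.46 in PA and fell by 1.24 (SE 0.19, limma adjusted p = 0.00675). Rbp7, a retinol-binding protein gene, read 6.64, 6.61 and 6.29 in IR and 7.67, 7.83 and 7.73 in PA and fell by 1.23 (SE 0.12, limma adjusted p = 0.000361).

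The next falls are of enzymes for polyamines, aldehydes and peroxides and of Keap1; they are set side by side after their values were seen and stand for no pathway. Smox, spermine oxidase, read 5.55, 5.41 and 5.55 in IR and 7.08, 7.37 and 6.85 in PA and fell by 1.60 (SE 0.15, limma adjusted p = 0.000309). Aldh3a1, an aldehyde dehydrogenase gene, read 5.07, 5.33 and 5.12 in IR and 6.50, 6.91 and 6.42 in PA and fell by 1.44 (SE 0.15, limma adjusted p = 0.000579), and its neighbour Aldh3a2 fell by 0.42 (SE 0.09, limma adjusted p = 0.0461), a call lost without 6 of the arrays (0.233 without PA2). Gstm2, a glutathione S-transferase gene, read 5.52, 5.35 and 5.77 in IR and 6.69, 6.76 and 6.76 in PA and fell by 1.19 (SE 0.09, limma adjusted p = 7.84e-05), the only one of 19 transferases to pass; Mgst1 had a change of -0.75 (adjusted p = 0.12) and Gstt1 one of 0.32 (0.377). Gpx1, glutathione peroxidase, read 11.32, 11.31 and 11.28 in IR and 11.87, 11.99 and 11.70 in PA and fell by 0.55 (SE 0.10, limma adjusted p = 0.0199), Selenow, another selenoprotein gene, fell by 0.61 (SE 0.08, limma adjusted p = 0.00348), and Keap1, the inhibitor of NRF2, fell by 0.35 (SE 0.06, limma adjusted p = 0.0235). Gpx1 and Keap1 were not called without PA2 (0.122 and 0.102). The Selenow call was lost when probe sets that can bind related transcripts were left out. Of 26 genes that NRF2 controls Gpx1 was the only call; 20 had changes below 0, and the median was -0.14, or -0.08 without IR3. Nqo1, the classic target, read 9.04, 9.002 and 8.61 in IR and 9.47, 9.60 and 9.31 in PA, without overlap and with a limma adjusted p of 0.0522, and Ephx1 and Gclc had changes of -0.40 and -0.33. Cat, catalase, had a change of 0.34. In the NRF2 list 11 of 26 had all IR arrays below all PA arrays, which 7.43% of all genes did, and 1 had all IR arrays above.

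Falls in metabolism were single genes. Gldc, the decarboxylase that cleaves glycine in mitochondria, read 5.03, 5.10 and 5.38 in IR and 6.35, 6.37 and 6.21 in PA and fell by 1.14 (SE 0.11, limma adjusted p = 0.000309). Pcx, pyruvate carboxylase, read 6.11, 5.74 and 5.96 in IR and 6.56, 6.76 and 6.51 in PA and fell by 0.67 (SE 0.13, limma adjusted p = 0.0265), 1 of 18 genes of the tricarboxylic acid cycle, and was lost without PA2 (0.16). Slc15a3, a histidine and peptide transporter gene of lysosomes, read 4.11, 4.03 and 4.24 in IR and 5.20, 5.39 and 4.94 in PA and fell by 1.05 (SE 0.19, limma adjusted p = 0.0194), also lost without PA2 (0.127). Chst1, a sulfotransferase gene for keratan sulfate, read 6.62, 6.55 and 6.94 in IR and 7.70, 7.68 and 7.79 in PA and fell by 1.02 (SE 0.11, limma adjusted p = 0.000579). In lipid metabolism Tm7sf2, a sterol reductase gene, read 7.92, 7.57 and 7.92 in IR and 6.95, 7.04 and 7.19 in PA and rose by 0.74 (SE 0.11, limma adjusted p = 0.00439), the only call among 24 cholesterol genes, and Lpin3, a phosphatidate phosphatase gene, changed by 0.44. Lipid genes that fell were Pitpnc1 (-0.58), Plpp1 (-0.53) and Chpt1 (-0.48). Nnmt, which methylates nicotinamide, rose by 0.41. The calls of Lpin3, Pitpnc1, Plpp1, Chpt1 and Nnmt were lost without single arrays, with highest adjusted p of 0.188 without PA1, 0.204 without PA1, 0.0531 without IR1, 0.232 without PA2 and 0.0752 without PA2. No gene of glycolysis (22), the respiratory chain (33), fatty acid metabolism (28) or metal handling (20) passed. The tumours the IR lines came from were labelled very hypoxic, and none of 27 targets of hypoxia-inducible factor passed, with 20 changes above 0 and a median of 0.11. Without IR3 14 were above 0 and the median was 0.03, and without PA3 it was 0.18. Bnip3 read 10.14, 10.12 and 10.91 in IR and 9.71, 9.40 and 10.26 in PA and Vegfa 7.57, 7.53 and 7.79 in IR and 7.35, 7.42 and 7.55 in PA and both groups overlapped for each.

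Several called genes act in G protein and cyclic nucleotide signalling; they were picked from the calls after their values were seen, with no count of the genes measured in that pathway. Rgs2, which shuts off Gq, read 7.26, 6.99 and 8.18 in IR and 8.67, 8.68 and 8.79 in PA and fell by 1.24 (SE 0.25, limma adjusted p = 0.0422), and IR3 lay closest to PA. Pde4d and Pde4b, which degrade cyclic AMP, read 4.03, 4.12 and 4.88 in IR and 5.50, 5.42 and 5.33 in PA and 4.19, 4.26 and 4.56 in IR and 4.98, 5.17 and 4.96 in PA and changed by -1.07 and -0.70. Plcb1, an effector of Gq, changed by -0.45, the G protein subunit gene Gng12 by -0.56, and the orphan receptor gene Mrgprf by -0.81. On the upper side, Prkg2, the cyclic GMP-dependent kinase II, read 8.28, 8.20 and 8.29 in IR and 7.64, 7.71 and 7.42 in PA and rose by 0.66 (SE 0.09, limma adjusted p = 0.0041), and Pde7a, a further cyclic AMP phosphodiesterase gene, changed by 0.43. Gng12 and Prkg2 passed whichever array was left out, while the highest adjusted p from limma was 0.176 for Rgs2 without PA3, 0.0979 for Pde4d without PA1, 0.22 for Pde7a without PA2, 0.168 for Plcb1 without PA1, 0.101 for Mrgprf without PA1 and 0.0675 for Pde4b without PA2.

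Among stress chaperones Cryab, the small heat shock protein alpha B crystallin, read 7.63, 7.48 and 7.57 in IR and 8.31, 8.62 and 8.37 in PA and fell by 0.87 (SE 0.16, limma adjusted p = 0.0215), the only call among 16 cytosolic chaperones. Of these 15 had changes below 0, with a median of -0.18 that was -0.07 without IR3, when Cryab too lost its call (adjusted p = 0.0592; at most 0.135, without PA2). Hspa1b read 10.25, 10.23 and 10.28 in IR and 10.65, 10.80 and 10.72 in PA and Hspa4l 10.02, 10.01 and 10.07 in IR and 10.35, 10.30 and 10.31 in PA, both without overlap, and did not pass (0.0758 and 0.143). Hspa8 had means of 13.03 and 13.06. Of the 16 chaperones 8 had all IR arrays below all PA arrays, which 7.43% of all genes did. In the secretory pathway Pdia4, a disulfide isomerase of the endoplasmic reticulum, read 10.22, 10.23 and 10.45 in IR and 9.80, 9.74 and 9.89 in PA and rose by 0.49 (SE 0.09, limma adjusted p = 0.0217). It was 1 of 21 genes of the integrated stress response and endoplasmic reticulum, of which 20 had changes above 0, against 9439 of all 18194 genes. In this list 14 had all IR arrays above all PA arrays, which 7.26% of all genes did. The median was 0.20, and 0.13 without IR3, when Pdia4 was not called (limma adjusted p = 0.0591). Herpud1, Ddit3 and Sdf2l1 had changes of 0.45, 0.44 and 0.31 (adjusted p = 0.136, 0.126 and 0.189), while the main chaperone Hspa5 had means of 12.997 and 12.96. These signs held after median centring and a second quantile normalization. None of 25 p53 targets or 24 apoptosis regulators passed.

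The core machinery of growth gave no call in 201 genes, with a median of -0.01. This covered mitosis (28 genes), DNA replication and repair (30), ribosomal proteins (21), ribosome biogenesis (27), tRNA synthetases (18), the constitutive proteasome (25), histones (7), the clock (16) and homeobox genes (29). Mki67, the proliferation marker, had means of 10.15 and 10.11, and Top2a of 11.42 and 11.32.

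**Figure D5:**
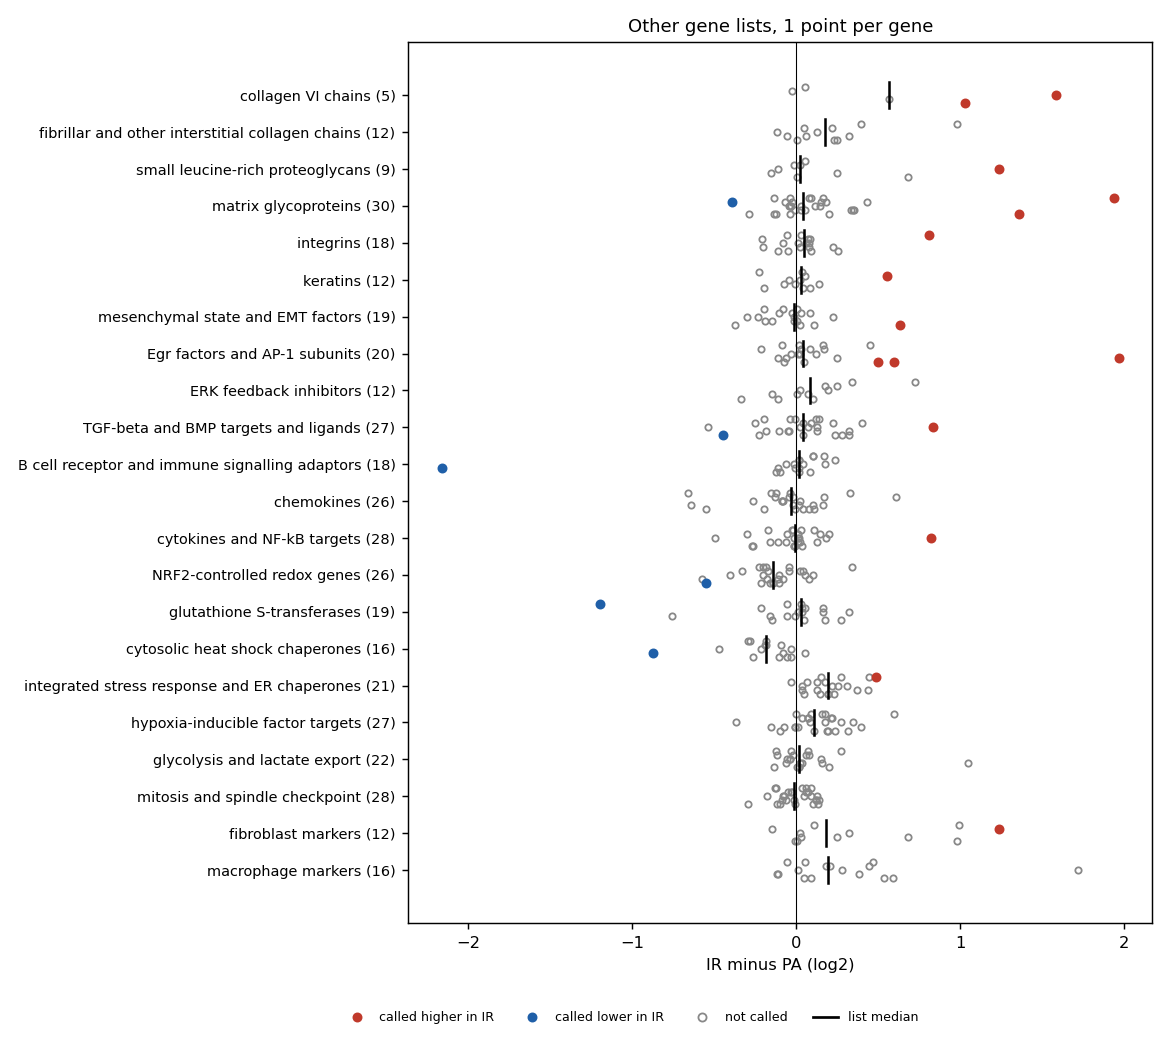
Change between IR and PA (log2, x axis) of the members of 22 further gene lists, 1 point per gene, with the number measured in brackets and the list median as a bar. Most lists centre near 0 with single called genes at their edges, and the collagen VI median is 0.57.

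Other genes of known function passed outside every list. Among secreted and surface proteins that fell were Gpnmb, a lysosomal and surface glycoprotein gene (7.02, 7.05 and 7.83 in IR and 8.37, 8.57 and 8.38 in PA; change -1.14), Slpi, a protease inhibitor gene of mucosal fluids (-0.72), Tspan11 (-0.74) and Ninj1, which ruptures dying cells' membranes (-0.40). Gsdmd, the pore former of pyroptosis, fell by 0.37, and Dnase1l3, a DNA-degrading enzyme gene, by 0.71. Cebpd, an inflammatory transcription factor gene, read 7.79, 7.90 and 8.45 in IR and 8.73, 9.05 and 8.85 in PA and fell by 0.83 (SE 0.16, limma adjusted p = 0.033), and IR3 lay closest to PA. Apobec1, an RNA-editing deaminase gene, changed by -0.39, the coactivator gene Ncoa3 by -0.47, the importin gene Ipo4 by -0.41 and the transporter genes Slco3a1 and Slc22a23 by -0.47 and -0.37. Fam102a (-1.02), Fam210b (-0.98), Apol7a (-0.84) and Shisa5 (-0.67) fell with adjusted p from limma of 7.84e-05, 0.000642, 0.000332 and 0.000569. The Fam102a call was lost when probe sets that can bind related transcripts were left out. The rises included Evi2a (0.91), Sertad4 (0.87), Tmcc3 (0.82), the sorting nexin gene Snx24 (0.74), Popdc3 (0.72), the acetylcholine receptor gene Chrnb1 (0.62), Nptx1, a pentraxin gene (0.56), Olfml3 (0.54), Adam8, a surface protease gene (0.52), Alg10b, of N-glycan assembly (0.49), and Spcs3, a signal peptidase subunit gene (0.31). A second probe set of Alg10b changed by -0.15, at a mean signal of 7.96 over the 9 arrays against 8.29 for the tested one. The calls of Alg10b and Ncoa3 were among 39 of the 192 that were lost when the probe sets of a gene were averaged. Genes described above that lost their calls this way include Skil, Pdia4, Slit2, Rgs2, Cebpd, Agrn, Arhgap29, Cdc42ep5, Tap1, Tlr3, Pde4b, Kcnk5 and Rnf213. Sertad4, Snx24 and Popdc3 passed whichever array was left out. Adam8, Chrnb1, Nptx1, Olfml3 and Spcs3 did not, with highest adjusted p of 0.17, 0.169, 0.162, 0.141 and 0.188, and neither did Gpnmb (0.125) and Cebpd (0.195), for each without PA2 or PA1. Further calls lost without single arrays were those of Ninj1 (at most 0.233, without PA2), Gsdmd (0.137, PA2), Apobec1 (0.172, PA1), Ipo4 (0.123, PA2), Slco3a1 (0.182, PA3), Slc22a23 (0.156, PA1), Evi2a (0.128, PA3), Tmcc3 (0.0553, PA3) and Alg10b (0.0504, IR2).

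Since IR and PA differ in more than irradiation, the lines from tumours in stroma that was not irradiated (NIR) are set beside the leading genes; this difference shares the IR arrays with the comparison above. Irf7 read 7.16, 7.28 and 7.69 in NIR1, NIR2 and NIR3, and IR minus NIR was -0.03, limma adjusted p = 0.942. Ifi27l2a read 7.27, 7.82 and 8.54 (-0.65, limma adjusted p = 0.202) and Oasl2 6.09, 6.34 and 7.01 (0.28, limma adjusted p = 0.616), so the NIR means of these interferon genes lay closer to IR than to PA. Smox read 5.72, 6.08 and 6.32 (-0.54, limma adjusted p = 0.0984) and Dcn 8.93, 8.61 and 8.33 (0.43, limma adjusted p = 0.222). Other genes differed between IR and NIR. Egr1 read 4.26, 5.18 and 4.90 (3.94, limma adjusted p = 1.27e-05), below PA, and Ccn1 7.31, 7.02 and 7.26 (1.71, limma adjusted p = 2.56e-06), also below PA. Fstl1 read 4.78, 5.17 and 4.77 (1.87, limma adjusted p = 0.00425), Enpp3 3.81, 3.90 and 3.64 (1.23, limma adjusted p = 0.00498) and Skil 6.97, 7.01 and 7.28 (1.02, limma adjusted p = 0.00073), all near their PA values. Gldc read 6.49, 6.15 and 6.37 (-1.17, limma adjusted p = 0.00073) and Rhoj 5.45, 4.90 and 5.11 (-1.04, limma adjusted p = 0.00498), again near PA. Col6a3 lay between, at 6.60, 7.13 and 6.78 (0.52, limma adjusted p = 0.044), and so did Blnk, at 9.57, 8.50 and 8.26 (-1.55, limma adjusted p = 0.0181), 1 of whose NIR arrays lay above PA.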

How the data were processed

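Expression was measured on 9 Affymetrix arrays, 3 each of IR, NIR and PA, grouped by title. The deposited table holds log2 signals that the authors made with RMA, per the submitters' processing notes; its version and the array scans were not used here. RMA corrects background, sets all arrays to 1 distribution by quantiles and summarises probes, so a shift common to most genes would not show. Each array counts as 1 sample, and 3 a group limit the precision.

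Of 45100 probe sets, 64 controls were left out; 34944 have 1 gene in the platform annotation, 932 several and 9160 none. Entrez IDs matched RefSeq for 34740 of the 34944. Where a gene had several, its brightest by mean over all arrays stood for it, which left 18194 genes to test. All 9 arrays were fitted together with limma 3.58.1 (R 4.3.3; lmFit, eBayes), and IR minus PA was tested, two-sided, with Benjamini-Hochberg adjustment over all genes and a threshold of 0.05. Of 1415 genes in 72 lists 1284 were measured. The lists, the named genes and the comparison were chosen with earlier results of these data known, so a list is described by counts and its median only. Named genes are the 20 largest rises and falls, the called members of lists, a few uncalled members of a list, and called genes of known function. The fit was tested on simulated data. Alternatives were other fits, normalizations, probe set rules, thresholds and each array left out. The replicate numbers do not pair the samples: the correlations of deviations between same-numbered IR and PA arrays were 0.0186, -0.148 and -0.158.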

Additional observations from a re-analysis of the deposited data

Results flagged for a closer look

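Probe sets without a single gene name took no part in the comparison of genes. In a fit of all 45036 probe sets, 39 of the 10092 probe sets with several genes or none passed the limma threshold between IR and PA (0.386%), 7 higher and 32 lower in IR, with changes from -2.68 to 0.90. In the same fit 280 of all 45036 probe sets passed, which is a larger share. The 39 lie outside the measurements described above, and their genes were not analysed here.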

How the results depend on the processing

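Of 241 genes recomputed in the alternatives, the 192 calls and most uncalled genes whose changes are given, 0 reversed their sign. A further 42 uncalled genes named by level or with mostly small changes passed in no alternative, and 28 of them turned sign in at least 1, each with a change of at most 0.09 in size. Against 192 calls (54 higher, 138 lower), array weights gave 467 (170 and 297), an adjusted p below 0.01 gave 100 (23 and 77), and requiring a 2-fold change left 60 (9 and 51). Leaving out each array in turn gave 99 to 214 calls, 23 to 60 higher and 73 to 154 lower. The calls were fewest without PA1 (99; 23 and 76) and PA2 (99; 26 and 73), then IR2 (109; 32 and 77), IR1 (114; 32 and 82) and PA3 (121; 29 and 92), where a group has fewer samples, and without IR3 there were 186 (43 and 143), of which 136 were among the 192. The other settings stayed within 1.5 times: 196 with the IR and PA arrays alone, 176 when all probe sets of a gene were averaged, 182 without probe sets that can bind related transcripts, 204 above the median signal, 205 with trend and robust moderation, 176 (44 and 132) after centring on array medians and 207 (69 and 138) after a second quantile normalization. With the replicate number as a block, 164 genes passed (47 higher, 117 lower); the numbers do not pair the samples. In all 48 of the 192 calls were lost in that fit. With the IR and PA arrays alone 29 of the 192 were lost and 163 kept, so the similar total of 196 held partly different genes. Among the 29 were Atf3, Rgs2, Cebpd, Pde4d, Id1, B2m, H2-D1, Gbp6, Sp100, Slfn2, Tmsb4x, Kcnk5, Adam8 and Chrnb1. Averaging the probe sets of a gene lost 39. Of 132 further probe sets of called genes above the median signal, 121 had the same sign, 11 the opposite sign, and 0 of these 11 passed. Signals near the floor of an array understate a change. Of the falls 10 had an IR mean below the median signal of 4.49, and of the rises 8 had a PA mean below it. How many of these lay near the floor was not counted.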

Other observations

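Some of the genes that fell lay next to each other. In the RefSeq order of 18032 tested genes, 30 called genes lay in 14 runs of neighbours that were called in the same direction, and every run was of falls. The longest held the guanylate-binding protein genes Gbp7, Gbp3, Gbp2b and Gbp2. Most pairs were families or partners of the interferon response, such as Oas2 with Oas3, Oasl2 with Oasl1, Ifit2 with Ifit3, Igtp with Irgm2, Rsad2 with Cmpk2 and Psmb9 with Tap1. Other pairs lay outside it: Aldh3a1 with Aldh3a2, Rnf24 (change -0.53) with Smox, and Pde4b with Sgip1 (change -0.39). Members of a pair can share sequence, so neighbours are not independent readings.

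Of the genes that did not pass, 8 differed by more than 1 on the log2 scale, 7 of them higher in IR, and in all 8 IR3 was the highest IR array; they were picked after their values were seen. Ndufa4l2, a hypoxia-induced gene, read 7.09, 6.45 and 8.95 in IR and 5.70, 5.31 and 5.84 in PA (limma adjusted p = 0.117). Ddc, which makes dopamine and serotonin from their precursors, read 6.59, 6.72 and 7.86 in IR and 5.53, 5.71 and 5.57 in PA (0.0522). Aldoc, an aldolase gene, read 5.76, 5.74 and 6.84 in IR and 5.08, 4.87 and 5.25 in PA (0.0642), Acpp, an acid phosphatase gene, 5.78, 6.12 and 6.66 in IR and 5.16, 5.23 and 4.97 in PA (0.114) and Ccl6, a chemokine gene, 4.13, 3.97 and 6.51 in IR and 3.73, 3.75 and 3.81 in PA (0.558). Inmt, a methyltransferase gene, was the one lower in IR, at 5.67, 5.04 and 6.40 in IR and 7.20, 7.11 and 6.78 in PA (0.0653). The other two, Lyz2 and Ctss, are given above. For Ccl6 the IR1 and IR2 arrays lay within 0.5 of PA.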
